A study of Mus musculus with 12 samples.

Results

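The subject is a set of 34 genes of cholesterol synthesis and sterol handling in mouse duodenum, followed across genotype and postnatal age. They were taken from a named list, each represented by the array feature that carries only that gene's symbol (the feature with the highest mean where a gene had several). Of the 34, 31 were measured, out of 19938 genes tested, and Acat2, Soat1 and Soat2 were not analysed here. By role, the measured genes comprised 17 enzymes of synthesis, 7 regulators and 7 genes of transport.

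Total RNA of duodenal segments was hybridised to a mouse whole-transcript array in 4 groups of 3 arrays, 12 in all: Onecut-2 knockout at postnatal day 30, wild type at day 30, Onecut-2 knockout at day 15 and wild type at day 15. All mice were of strain 129, untreated and of mixed sex, and each array held RNA pooled from 5 to 8 mice, so the spread between arrays is a spread between pools. Onecut2 encodes a cut homeodomain transcription factor; the sources used here do not state how the allele was made or in which cells it is lost. Day 15 lies in the suckling period and day 30 after weaning.

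Cholesterol is built from acetyl-CoA through mevalonate, isoprenoid diphosphates, squalene and lanosterol. When membranes of the endoplasmic reticulum are low in sterol, SCAP escorts SREBP proteins to the Golgi, where they are cleaved, and the released fragment switches on the genes of this route; INSIG proteins hold the complex back when sterol is ample. Enterocytes also take cholesterol from the lumen through NPC1L1 and return sterols to it through the ABCG5 and ABCG8 pair, and oxysterols acting on liver X receptors (LXR) raise the genes of efflux.

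The upstream sequences of a few genes are shown as a description, and no link between them and the expression changes was tested. RefSeq promoter windows (250 bases before to 50 after the start, assembly GRCm38.p6, the C57BL/6J reference and not strain 129) were matched by symbol for 26 of the 31 measured genes and for 15614 of all genes tested. The box CCAAT, bound by NF-Y, a partner of SREBP proteins, was sought on both strands and stood in the windows of 14 of 14 enzymes with a window, against 41.7% of all genes. It was not particular to the enzymes, since it also stood in 5 of 7 regulator windows and in 4 of 5 transport windows. At least 2 such boxes stood in 9 of the 14 enzyme windows, against 14.3% of genes. The first 4 sequences below are the 250 bases upstream of enzymes described further on, 5′ to 3′ on the gene's own strand, with capitals marking CCAAT or its reverse complement and, in Hmgcs1, a match to TCACNCCAC, the core of the sterol regulatory element. The fifth is only the 109-base stretch between the divergent starts of Abcg5 and Abcg8, on the plus strand, which held neither motif. The promoter windows of both genes reach beyond this stretch and did hold CCAAT, 1 box for Abcg5 and up to 2 for Abcg8.
Hmgcs1, chr13:119690101-119690350, plus strand: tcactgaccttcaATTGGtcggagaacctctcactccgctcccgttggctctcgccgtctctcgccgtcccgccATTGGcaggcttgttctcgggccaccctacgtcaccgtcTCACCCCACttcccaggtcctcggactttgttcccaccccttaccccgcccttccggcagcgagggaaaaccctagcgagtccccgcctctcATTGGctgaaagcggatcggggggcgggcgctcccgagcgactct
Idi1, chr13:8885356-8885605, plus strand: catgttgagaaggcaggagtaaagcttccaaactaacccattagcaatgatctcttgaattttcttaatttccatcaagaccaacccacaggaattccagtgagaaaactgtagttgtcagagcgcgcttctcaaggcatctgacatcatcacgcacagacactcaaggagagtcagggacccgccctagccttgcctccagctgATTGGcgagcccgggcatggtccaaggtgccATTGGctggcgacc
Msmo1, chr8:64733579-64733828, minus strand: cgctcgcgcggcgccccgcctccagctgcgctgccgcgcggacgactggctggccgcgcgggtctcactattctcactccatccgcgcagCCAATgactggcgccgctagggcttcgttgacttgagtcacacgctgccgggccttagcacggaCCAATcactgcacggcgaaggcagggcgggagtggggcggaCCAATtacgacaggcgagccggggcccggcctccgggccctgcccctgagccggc
Sc5d, chr9:42264301-42264550, minus strand: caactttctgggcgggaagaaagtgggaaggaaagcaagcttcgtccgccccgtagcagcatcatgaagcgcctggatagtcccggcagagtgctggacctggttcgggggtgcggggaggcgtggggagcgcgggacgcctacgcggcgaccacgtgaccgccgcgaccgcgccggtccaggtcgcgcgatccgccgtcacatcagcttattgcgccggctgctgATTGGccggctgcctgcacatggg
Between Abcg5 and Abcg8, chr17:84683012-84683120, plus strand: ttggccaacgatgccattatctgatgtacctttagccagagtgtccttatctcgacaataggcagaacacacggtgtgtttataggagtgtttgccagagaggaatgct

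The sterol regulatory element core was found in 1 of the 14 enzyme windows (Hmgcs1), against 1.4% of genes. The Sp1 box GGGCGG stood in 13 of 14 enzyme windows, in 6 of 7 regulator windows and in 2 of 5 transport windows, against 52.9% of genes. The regulator windows without CCAAT were those of Scap and Nr1h3, and the transport window without it was that of Abca1. The E-box CACGTG was found in 3 of 14, 2 of 7 and 1 of 5 windows, against 9.5% of genes. The spaced repeat of the LXR element, sought as AGGTCA with 4 bases between its copies, was in none of the 26 windows and in 0.0064% of genes. These matches describe letters in short windows and were not measurements of binding.

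Values are log2 expression after RMA, in which 1 unit is a doubling, and a call means a limma adjusted p (Benjamini-Hochberg over all 19938 genes) under 0.05. Array medians lay between 7.20 and 7.25. The targeted gene Onecut2 had 8.24, 8.25 and 8.18 in knockout against 9.63, 9.50 and 9.62 in wild type at day 30, and 8.09, 8.13 and 8.20 against 9.55, 9.69 and 9.68 at day 15; where its probes lie relative to the deletion was not analysed here. The enterocyte markers averaged 12.50 ± 0.03 in knockout and 12.41 ± 0.05 in wild type at day 30, and 12.52 ± 0.01 and 12.48 ± 0.03 at day 15 (10 genes, SD, n = 3 arrays each), so the labelled tissue carried its defining epithelium in all groups. Within that list 4 markers were called higher and 3 lower with age in each genotype, among them Krt20 (0.75 in knockout and 0.73 in wild type) and Fabp2 (-0.93 and -1.29). Over all genes, 13.8% were called higher and 17.2% lower with age in knockout, and 12.3% and 17% in wild type. Of 7 hepatocyte markers, Alb, Apoh, Fga, Fgb and Ahsg lay below the array medians in every group. Ttr and Cps1 lay above them, with Ttr lower with age (-0.92 in knockout and -0.65 in wild type) and lower in knockout at day 30 (-0.44), and Cps1 lower with age (-0.28 and -0.25). Of 5 adipocyte markers, Adipoq, Plin1, Lep and Retn lay below the medians, and Fabp4 was lower with age (-0.54 and -0.72). The part of these markers in the results was not tested. In a whole segment, fewer cells of a type and less RNA per cell cannot be told apart.

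The enzymes of cholesterol synthesis rose between day 15 and day 30 in both genotypes. In knockout, 16 of 17 were higher at day 30, with a median log2 fold change of 0.62 (1.54-fold) and a range from 0.12 for Pmvk to 1.02 for Sqle. In wild type, 17 of 17 were higher, with a median of 0.71 (1.63-fold) and a range from 0.43 for Pmvk to 1.46 for Cyp51. Over all 31 sterol genes, 19 were called higher and 4 lower with age in knockout, and 21 and 5 in wild type. Of all genes, 31% were called in knockout (13.8% higher) and 29.3% in wild type (12.3% higher), and their median log2 fold changes were 0.03 and 0.02. All 17 enzymes had 3 day 30 values above the 3 day 15 values in each genotype, which held for 20.9% of genes in knockout and 20.7% in wild type. The comparisons in knockout and in wild type rest on different arrays but share 1 estimate of the spread, so their calls are not independent. In both, 16 enzymes were called higher, against 8.74% of genes.

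**Figure D1:**
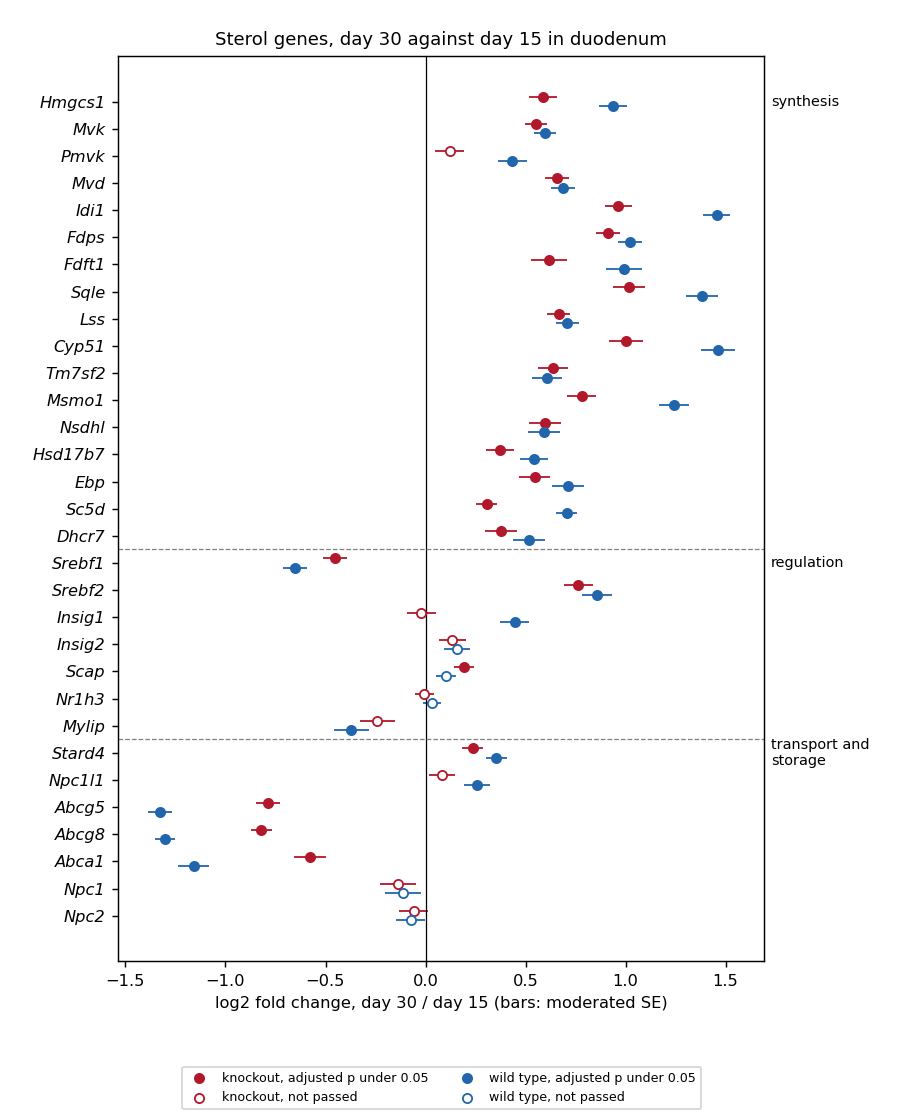
Log2 fold change of day 30 over day 15 (horizontal axis, bars: moderated SE) for each measured sterol gene (rows, by role) in knockout and in wild type, filled where the adjusted p is under 0.05. All 17 enzymes lie right of 0 in both genotypes, Srebf1 lies left while Srebf2 lies right, and Abcg5, Abcg8 and Abca1 lie farthest to the left.

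The early steps make mevalonate and turn it into isoprenoid units. Hmgcs1, which makes HMG-CoA in the cytosol, was higher at day 30 by 0.58 in knockout and 0.94 in wild type. The kinases Mvk and Pmvk and the decarboxylase Mvd act next: Mvk was higher by 0.55 and 0.60, and Mvd by 0.66 and 0.69, in knockout and wild type. Pmvk was higher by 0.43 in wild type (adjusted p = 0.00056), while its difference in knockout was 0.12 (adjusted p = 0.24). Idi1, the isomerase that readies isoprenoid units for condensation, had log2 values of 10.56, 10.62 and 10.39 in knockout and 10.55, 10.51 and 10.67 in wild type at day 30, and 9.58, 9.57 and 9.54 in knockout and 9.06, 9.15 and 9.16 in wild type at day 15. The day 30 arrays of both genotypes overlapped each other and lay well above day 15, where the knockout arrays lay above the wild type arrays. Its log2 fold change with age was 0.96 in knockout (SE 0.07, limma adjusted p = 3.1e-07) and 1.46 in wild type (SE 0.07, limma adjusted p = 1.1e-08). Idi1 and Fdft1 were each represented by 2 features, and the second features gave age differences of 0.97 and 1.46 for Idi1 and 0.85 and 1.22 for Fdft1 in knockout and wild type.

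The middle steps build squalene and close it into lanosterol. Fdps, the farnesyl diphosphate synthase, was higher at day 30 by 0.91 in knockout and 1.02 in wild type, and Fdft1, the squalene synthase, by 0.62 and 0.99. Sqle, the squalene epoxidase and a rate-limiting step of the later pathway, had 10.08, 9.99 and 9.81 in knockout and 9.81, 9.93 and 10.04 in wild type at day 30, and 8.94, 8.94 and 8.95 in knockout and 8.52, 8.46 and 8.65 in wild type at day 15. Both day 30 groups lay about 1 log2 unit or more above their own day 15 group, at 1.02 in knockout and 1.38 in wild type (SE 0.08 each, limma adjusted p = 9.5e-07 and 7.7e-08). Lss, the lanosterol synthase, was higher by 0.67 and 0.71.

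The late steps strip methyl groups from lanosterol and shift or reduce its double bonds. Cyp51, the lanosterol demethylase, had 9.38, 9.35 and 9.14 in knockout and 9.34, 9.43 and 9.51 in wild type at day 30, and 8.25, 8.33 and 8.28 in knockout and 7.83, 7.93 and 8.13 in wild type at day 15. Its rise was 2-fold in knockout and 2.76-fold in wild type, in wild type a log2 fold change of the same size as that of Idi1 (1.46, SE 0.09, limma adjusted p = 7.7e-08). Msmo1, the methylsterol oxidase, had 12.10, 12.05 and 11.91 in knockout and 12.03, 12.01 and 12.19 in wild type at day 30, and 11.29, 11.29 and 11.14 in knockout and 10.76, 10.83 and 10.91 in wild type at day 15. The 2 genotypes overlapped at day 30, and Msmo1 was higher with age by 0.78 in knockout and 1.24 in wild type. Tm7sf2 and Nsdhl, a sterol reductase and a sterol dehydrogenase, were higher by 0.64 and 0.60 in knockout and by 0.61 and 0.59 in wild type. Hsd17b7 and Dhcr7, which reduce a ketone and the final double bond, were higher by 0.37 and 0.38 in knockout and by 0.54 and 0.52 in wild type. Sc5d and Ebp, described with the genotype comparison, were higher by 0.30 and 0.55 in knockout and by 0.70 and 0.71 in wild type.

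**Figure D2:**
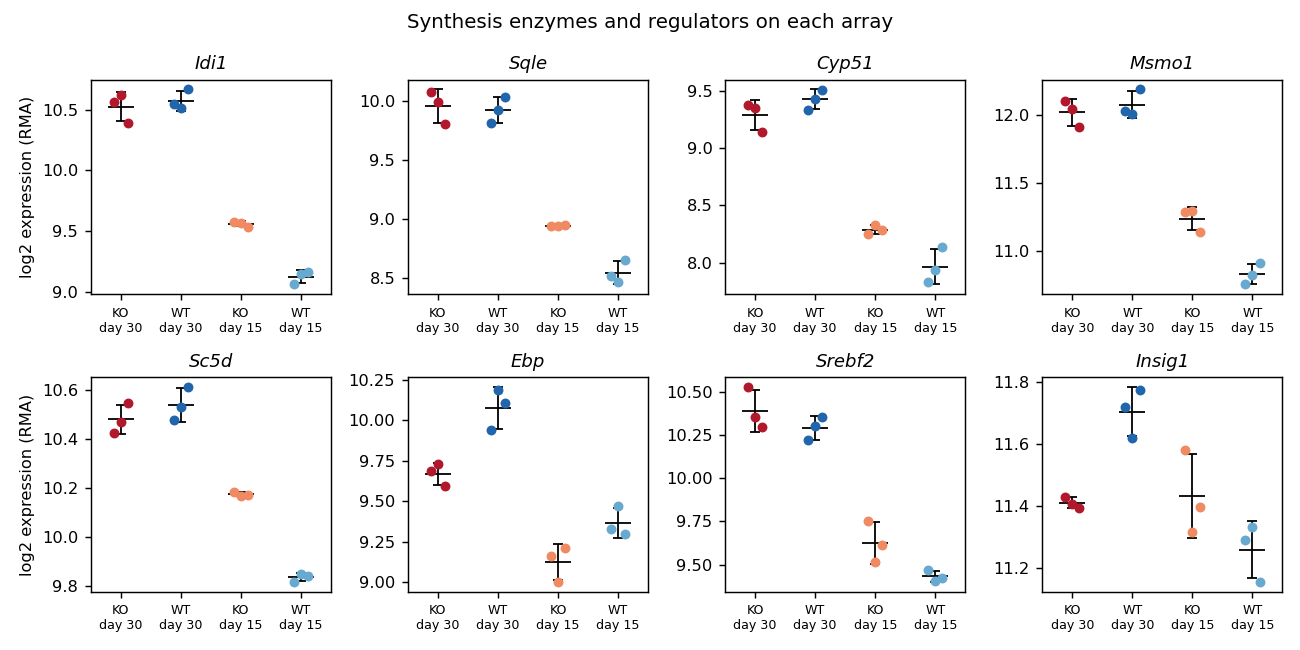
Log2 expression (vertical axes) on each array for selected enzymes of synthesis and the regulators Srebf2 and Insig1, with knockout and wild type at day 30 and then at day 15. Points are arrays, lines are means and bars SD (n = 3). At day 15 the knockout points of Idi1, Sqle, Msmo1 and Sc5d sit above the wild type points, and at day 30 the genotypes overlap for these genes.

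Averaged over the 17 enzymes, the log2 level was 9.64 ± 0.05 in knockout and 9.70 ± 0.05 in wild type at day 30, and 9.01 ± 0.01 in knockout and 8.84 ± 0.05 in wild type at day 15 (SD, n = 3). The age difference of this mean was 0.63 in knockout and 0.86 in wild type. The log2 fold change with age was larger in wild type for 15 of the 17 enzymes, but the difference between the genotypes was called for only 2 of them, Idi1 and Sc5d.

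**Figure D3:**
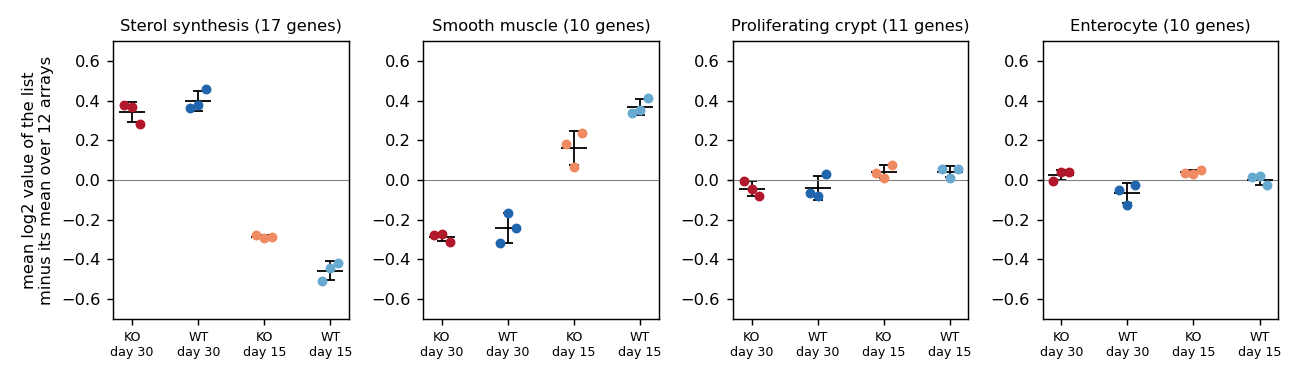
Mean log2 expression per array, minus the list's own mean over the 12 arrays (vertical axes), for the enzymes of synthesis and for cell type marker lists, by group. Points are arrays, lines are means and bars SD (n = 3). The enzyme mean separates the ages, and the smooth muscle mean separates them in the opposite direction. The enterocyte mean, before that subtraction, runs from 12.35 to 12.53 over the 12 arrays.

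Smooth muscle markers moved against the enzymes. All 10 were lower at day 30 in each genotype (medians -0.44 in knockout and -0.59 in wild type), none was near 0 on any array, and their mean was 10.03 ± 0.02 in knockout and 10.08 ± 0.08 in wild type at day 30, against 10.48 ± 0.09 and 10.69 ± 0.04 at day 15 (SD, n = 3). With that mean added to the model, the median log2 fold change of the 31 sterol genes was 0.41 in knockout and 0.59 in wild type, against 0.37 and 0.54 without it, and the genes called numbered 4 (Sqle, Cyp51 and Ebp higher, Abcg8 lower) and 0, with 17 and 18 at an unadjusted p under 0.05. That mean separates the ages without overlap, and its part in the result was not tested further. T cell markers were higher with age for 7 of 8 genes in each genotype, with means of 8.83 and 8.76 in knockout and wild type at day 30 and 7.26 and 7.003 at day 15. Proliferating crypt markers averaged 9.34 in both genotypes at day 30 and 9.42 in both at day 15, with 4 of 11 called lower and 1 higher with age in each genotype (Lgr5 -0.59 in knockout and -0.67 in wild type, Birc5 0.49 and 0.36). Beside the counts of these 3 marker lists, 13.8% of all genes were called higher and 17.2% lower with age in knockout, and 12.3% and 17% in wild type. With arrays centred on epithelial genes, 17 sterol genes were called higher and 6 lower with age in knockout, against 19 and 4 without centring. In wild type they numbered 20 and 8, against 21 and 5. Over all genes, centring gave 1505 higher and 5670 lower in knockout, against 2753 and 3425 without it. In wild type it gave 1082 and 8027 over all genes, against 2455 and 3394. The added lower calls under centring were therefore not particular to the sterol genes.

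The regulators did not move as one group with age. Of 7, 2 were called higher and 1 lower in knockout, and 2 higher and 2 lower in wild type. Of all genes, 13.8% were called higher and 17.2% lower in knockout, and 12.3% and 17% in wild type. Srebf2, which encodes the SREBP that chiefly drives cholesterol genes, had 10.53, 10.35 and 10.29 in knockout and 10.22, 10.30 and 10.35 in wild type at day 30, and 9.75, 9.52 and 9.61 in knockout and 9.47, 9.40 and 9.42 in wild type at day 15. Each day 30 value lay above each day 15 value, and the rise was 0.76 in knockout and 0.86 in wild type (SE 0.07 each, limma adjusted p = 6.2e-06 and 2.2e-06). Srebf1, whose protein products chiefly drive fatty acid synthesis, went the other way, with 9.21, 9.12 and 9.08 in knockout and 9.0, 9.04 and 9.12 in wild type at day 30, and 9.66, 9.51 and 9.59 in knockout and 9.77, 9.67 and 9.67 in wild type at day 15. It fell by 0.45 in knockout and by 0.65 in wild type (SE 0.06 each, limma adjusted p = 8.9e-05 and 4.1e-06), and no day 30 array reached a day 15 array. Srebf1 was 1.37-fold lower at day 30 in knockout and 1.57-fold lower in wild type.

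Insig1, which retains SCAP in the endoplasmic reticulum and is itself an SREBP target, had 11.43, 11.41 and 11.39 in knockout and 11.72, 11.62 and 11.77 in wild type at day 30, and 11.58, 11.31 and 11.40 in knockout and 11.29, 11.33 and 11.15 in wild type at day 15. In knockout the ages overlapped (log2 fold change -0.02, limma adjusted p = 0.86), whereas in wild type Insig1 rose by 0.45 (SE 0.07, limma adjusted p = 0.00049). The difference between the genotypes was -0.47 (SE 0.10, limma adjusted p = 0.091), which was not called. Scap, the escort protein, was higher by 0.19 in knockout (adjusted p = 0.0099), a call lost with epithelial centring (0.085, adjusted p = 0.201) and with the smooth muscle mean in the model (0.30, adjusted p = 0.445), and differed by 0.10 in wild type (adjusted p = 0.16). Mylip, an LXR-induced ligase that marks lipoprotein receptors for degradation, fell by 0.37 in wild type (adjusted p = 0.0064, a call lost with Xist as a covariate at -0.25, adjusted p = 0.156, and with the smooth muscle mean in the model at 0.16, adjusted p = 0.89) and differed by -0.24 in knockout (adjusted p = 0.056). Insig2, a second retention factor, differed by 0.13 and 0.16, and Nr1h3, which encodes an LXR, by -0.01 and 0.03; neither was called.

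Among the transport genes, the efflux transporters fell with age in both genotypes. Over all genes, 17.2% were called lower in knockout and 17% in wild type, and 13.2% in both. Without overlap between the ages, 5 of the 31 sterol genes were lower in each genotype (Srebf1, Mylip, Abcg5, Abcg8 and Abca1), against 22% of all genes in knockout and 23.1% in wild type. Abcg5 and Abcg8 form the obligate pair that exports sterols to the lumen. Abcg5 had 10.81, 10.98 and 10.79 in knockout and 10.82, 10.93 and 10.92 in wild type at day 30, and 11.64, 11.66 and 11.65 in knockout and 12.20, 12.26 and 12.20 in wild type at day 15. Abcg8 had 10.55, 10.65 and 10.54 in knockout and 10.50, 10.53 and 10.51 in wild type at day 30, and 11.44, 11.38 and 11.37 in knockout and 11.84, 11.84 and 11.78 in wild type at day 15. For each gene the day 30 arrays lay lowest, the knockout arrays at day 15 stood between, and the wild type arrays at day 15 lay highest. Abcg5 was 1.73-fold lower at day 30 in knockout and 2.51-fold lower in wild type (log2 fold changes -0.79 and -1.33, SE 0.06 each, limma adjusted p = 7.4e-07 and 9.5e-09). Abcg8 was 1.77-fold lower in knockout and 2.46-fold lower in wild type (-0.82 and -1.30, SE 0.05 each, limma adjusted p = 1.2e-07 and 3.1e-09).

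Abca1, which loads cholesterol onto lipid-poor apolipoprotein and is a classical LXR target, had 8.23, 8.36 and 8.11 in knockout and 7.89, 8.05 and 7.91 in wild type at day 30, and 8.70, 8.96 and 8.77 in knockout and 9.13, 9.08 and 9.11 in wild type at day 15. It fell with age by 0.58 in knockout and by 1.16 in wild type (SE 0.08 each, limma adjusted p = 0.0001 and 2.9e-07). Stard4, a cytosolic sterol carrier, rose by 0.24 in knockout and 0.35 in wild type (adjusted p = 0.0041 and 0.00021). The knockout call was lost with epithelial centring (0.13, adjusted p = 0.0957), and both were lost with the smooth muscle mean in the model (0.37 in knockout, adjusted p = 0.363, and 0.53 in wild type, adjusted p = 0.426). That loss was not particular to Stard4, since in that model 0 sterol genes were called with age in wild type and 4 in knockout. In wild type it gave -1.13 for Abcg5, -1.22 for Abca1 and 1.26 for Srebf2 (limma adjusted p = 0.153, 0.246 and 0.178). Npc1 and Npc2, which release cholesterol from lysosomes, differed by -0.14 and -0.06 in knockout and by -0.11 and -0.07 in wild type and were not called.

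Npc1l1, the uptake transporter of the brush border, had 12.09, 12.23 and 12.08 in knockout and 11.84, 11.89 and 11.87 in wild type at day 30, and 11.99, 12.06 and 12.10 in knockout and 11.50, 11.60 and 11.72 in wild type at day 15. At each age the 3 knockout arrays lay above the 3 wild type arrays. With age it differed by 0.08 in knockout (limma adjusted p = 0.38) and was higher by 0.26 in wild type (SE 0.07, limma adjusted p = 0.009). The wild type call was lost with arrays centred on epithelial genes (0.088, adjusted p = 0.344), with Xist as a covariate (0.24, adjusted p = 0.0936) and with the smooth muscle mean in the model (0.59, adjusted p = 0.454).

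**Figure D4:**
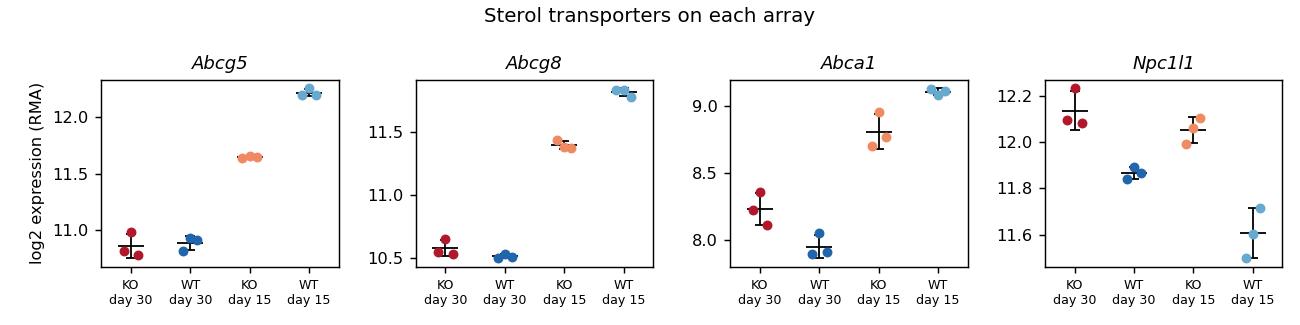
Log2 expression (vertical axes) of Abcg5, Abcg8, Abca1 and Npc1l1 on each array, with knockout and wild type at day 30 and then at day 15; points are arrays, lines are means and bars SD (n = 3). The efflux genes are lower at day 30, the knockout lies below wild type at day 15 for Abcg5, Abcg8 and Abca1, and Npc1l1 lies higher in knockout at both ages.

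More sterol genes were called between knockout and wild type at day 15 than at day 30. At day 15, 5 of the 31 sterol genes were called higher in knockout (Idi1, Sqle, Msmo1, Sc5d and Npc1l1) and 2 lower (Abcg5 and Abcg8), while 3.83% of all genes were called, 1.81% higher and 2.03% lower. At day 30, 1 of 31 was called, Ebp, which was lower in knockout, with 1.98% of all genes called, 1.04% higher and 0.943% lower. Without overlap between genotypes, 13 of the 31 were higher and 6 lower in knockout at day 15, against 9.09% and 12.2% of all genes. At day 30, 4 were higher and 4 lower without overlap, against 7.95% and 7.49%. The median log2 fold change of the 31 genes was 0.11 at day 15, against -0.01 over all genes, and -0.004 at day 30. The genotype comparison at day 15 shares its arrays with the age comparisons, so a larger rise with age in wild type and a higher day 15 level in knockout are partly the same measurement.

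**Figure D5:**
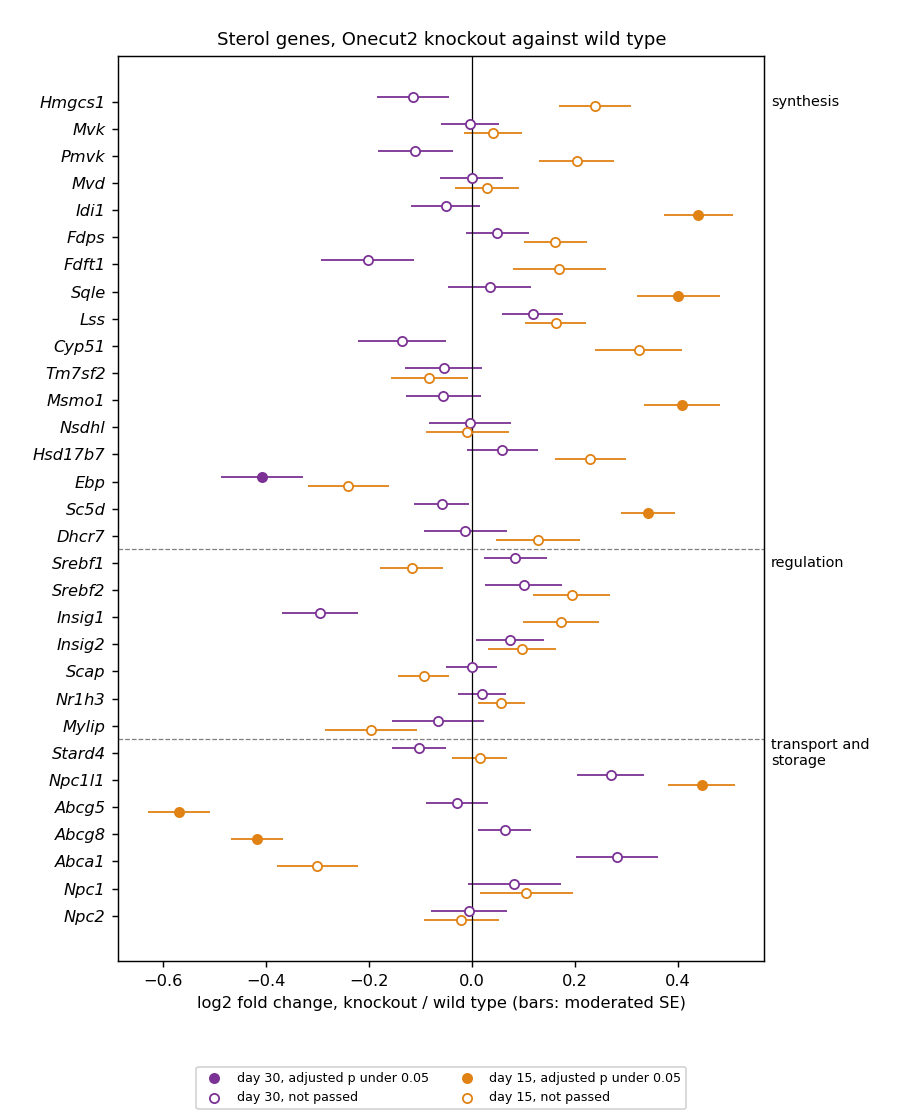
Log2 fold change of knockout over wild type (horizontal axis, bars: moderated SE) for each measured sterol gene (rows, by role) at day 30 and day 15, filled where the adjusted p is under 0.05. At day 15 Idi1, Sqle, Msmo1, Sc5d and Npc1l1 are filled to the right and Abcg5 and Abcg8 to the left, and at day 30 Ebp alone is filled.

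Of the 17 enzymes, 4 were called higher in knockout at day 15 and 0 lower, with a median log2 fold change of 0.17 and 14 positive values. Idi1 was higher by 0.44 (1.36-fold, SE 0.07, limma adjusted p = 0.0026) and Msmo1 by 0.41 (1.33-fold, SE 0.07, limma adjusted p = 0.0081). Sqle was higher by 0.40 (1.32-fold, SE 0.08, limma adjusted p = 0.015), a call that was lost when either of knockout replicates 2 and 3 or of wild type replicates 1 and 2 at day 15 was left out (adjusted p from 0.0527 to 0.0715). Sc5d, the desaturase that makes the sterol ring's later double bond, had 10.43, 10.47 and 10.55 in knockout and 10.48, 10.53 and 10.61 in wild type at day 30, and 10.19, 10.17 and 10.17 in knockout and 9.82, 9.85 and 9.84 in wild type at day 15. The knockout arrays at day 15 differed from one another by a few hundredths and all lay above wild type, a difference of 0.34 (1.27-fold, SE 0.05, limma adjusted p = 0.003). Cyp51 differed by 0.32 (adjusted p = 0.056) and Hmgcs1 by 0.24 (adjusted p = 0.091) with no overlap between genotypes, and neither was called. At day 30 the enzymes had a median of -0.05, with 4 positive values of 17, and with limma 2 had an unadjusted p under 0.05, of which Ebp was called lower and 0 were called higher.

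Ebp, the sterol isomerase encoded on chromosome X, had log2 fold changes below 0 in knockout at both ages, while 14 of the 17 enzymes were above 0 at day 15 and 4 at day 30. Tm7sf2 (-0.055 at day 30 and -0.083 at day 15) and Nsdhl, which is also on chromosome X (-0.004 and -0.009), were also below 0 at both ages, and neither was called. Ebp read 9.69, 9.73 and 9.59 in knockout and 9.94, 10.19 and 10.11 in wild type at day 30, and 9.16, 9.001 and 9.21 in knockout and 9.33, 9.47 and 9.30 in wild type at day 15. The knockout arrays lay below the wild type arrays at both ages. The difference was -0.41 at day 30 (1.33-fold lower, SE 0.08, limma adjusted p = 0.018) and -0.24 at day 15 (SE 0.08, limma adjusted p = 0.14). The call at day 30 was lost without knockout replicate 1 or 3 or wild type replicate 2 or 3 at day 30 (adjusted p from 0.0653 to 0.0846) and with Xist as a covariate (-0.43, adjusted p = 0.087). Xist, which varied between arrays of the mixed-sex pools, had 10.66, 10.33 and 10.81 in knockout and 9.26, 10.67 and 9.53 in wild type at day 30. At day 15 it had 10.43, 10.61 and 10.78 in knockout and 11.37, 10.25 and 10.93 in wild type. Averaged over both ages, the log2 fold change of Ebp was -0.32 (SE 0.06, limma adjusted p = 0.004). That call was lost with the smooth muscle mean in the model, where the day 15 difference was 0.015 (limma adjusted p = 0.973).

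None of the 7 regulators was called between genotypes at either age with limma, while 1 at day 30 and 3 at day 15 had an unadjusted p under 0.05. Insig1 differed by -0.29 at day 30 (limma adjusted p = 0.068), with the knockout arrays all below the wild type arrays, and by 0.17 at day 15 (limma adjusted p = 0.28). Srebf2 differed by 0.10 at day 30 and 0.19 at day 15, and Srebf1 by 0.08 and -0.12.

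Among the transport genes, 3 were called between genotypes at day 15 and 0 at day 30 with limma, with 4 and 2 at an unadjusted p under 0.05. Abcg5 was 1.48-fold lower in knockout at day 15 (log2 fold change -0.57, SE 0.06, limma adjusted p = 0.00016), and Abcg8 was 1.34-fold lower (-0.42, SE 0.05, limma adjusted p = 0.00044). At day 30 the differences were -0.03 and 0.06, with limma adjusted p of 0.94 and 0.75. The knockout arrays of Abcg8 lay narrowly above the wild type arrays at day 30 (lowest 10.535 against highest 10.532). Abca1 differed by -0.30 at day 15 (adjusted p = 0.057) and by 0.28 at day 30 (adjusted p = 0.11), without overlap between genotypes at either age. Npc1l1 was 1.36-fold higher in knockout at day 15 (0.45, SE 0.07, limma adjusted p = 0.0019) and differed by 0.27 at day 30 (limma adjusted p = 0.061). Over both ages Npc1l1 was higher in knockout by 0.36 (SE 0.05, limma adjusted p = 0.00049), with each knockout array above each wild type array of its age. In that averaged comparison 4 sterol genes were called higher (Npc1l1, Idi1, Sqle and Sc5d) and 3 lower (Abcg5, Abcg8 and Ebp), against 2.48% and 2.86% of all genes and 5.34% in either direction. At day 30 alone the differences were -0.05 for Idi1, 0.03 for Sqle, -0.06 for Sc5d, -0.03 for Abcg5 and 0.06 for Abcg8. The averages of these genes therefore came mainly from day 15. The averaged calls of Idi1 and Sqle held in 8 of 21 alternative fits each and that of Sc5d in 5 of 21, and they were lost with epithelial centring and in most fits with 1 array left out.

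Smooth muscle markers differed alongside at day 15. All 10 had knockout values below the wild type values there without overlap, against 12.2% of all genes. Of the 10, 1 (Myh11) was called lower, against 2.03% of all genes, and the median was -0.21, against -0.06 at day 30. With the mean of these markers in the model, none of the 31 genes was called at day 15 with limma (11 at an unadjusted p under 0.05), and the log2 fold changes were 0.46 for Idi1 (adjusted p = 0.18), 0.55 for Sqle (adjusted p = 0.15), 0.38 for Msmo1 (adjusted p = 0.32) and 0.36 for Sc5d (adjusted p = 0.19). For the transporters they were 0.56 for Npc1l1 (adjusted p = 0.068), -0.50 for Abcg5 (adjusted p = 0.093) and -0.41 for Abcg8 (adjusted p = 0.11). With arrays centred on epithelial genes, Idi1 was higher by 0.37, Npc1l1 by 0.37 and Abcg5 differed by -0.64, all called. Stomach and Brunner gland markers were called lower in knockout at day 15 for 3 of 8 genes, against 2.03% of all genes. Their means were 10.002 ± 0.387 in knockout and 10.429 ± 0.095 in wild type (SD, n = 3), and their part was not tested. Pancreas acinar markers were below 0 at day 15 for 7 of 8 genes, 6 without overlap (12.2% of all genes) and 0 called with limma, with a median of -0.35 and means of 12.33 ± 0.24 in knockout and 12.75 ± 0.04 in wild type (SD, n = 3). T cell markers were above 0 for 7 of 8 genes, with Gzmb called (0.73) and means of 7.26 ± 0.12 in knockout and 7.003 ± 0.073 in wild type (SD, n = 3). Of 9 macrophage markers, 7 were below 0 and Lyz2 was called higher (0.77), where 1.81% of all genes were called higher. The part of these markers was not tested either. Proliferating crypt markers averaged 9.42 in both genotypes at day 15, although Lgr5 was lower in knockout at day 30 and day 15 (-0.43 and -0.50).

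The change of the genotype effect between ages was tested directly. It was called for 5 of the 31 genes, 3 positive and 2 negative, against 0.231% and 0.226% of all genes, 0.456% in either direction. Abcg5 gave 0.54 (SE 0.09, limma adjusted p = 0.015), Abcg8 gave 0.48 (SE 0.07, limma adjusted p = 0.01) and Abca1 gave 0.58 (SE 0.11, limma adjusted p = 0.045). These are differences of log2 fold changes, day 30 minus day 15, and the positive sign means that the knockout lay lower relative to wild type at day 15 than at day 30. Idi1 gave -0.49 (SE 0.10, limma adjusted p = 0.047) and Sc5d gave -0.40 (SE 0.08, limma adjusted p = 0.041), the opposite sign. With Xist as a covariate none of the 31 genes was called with limma (10 at an unadjusted p under 0.05), and the 5 stood at values of 0.55, 0.49, 0.52, -0.40 and -0.40 in the same order (adjusted p from 0.0761 to 0.323). The calls of Idi1, Sc5d and Abca1 were also lost in most fits with 1 array left out, and that of Abcg5 without wild type replicate 2 at day 15 (0.52, adjusted p = 0.0546).

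Genes around the pathway moved in both directions with age. They were taken from lists chosen for their roles, with earlier results of these data known. Of the core genes outside the set, 2 were measured and the other 5 were not analysed here: Lbr, a sterol reductase, rose by 0.18 in knockout (adjusted p = 0.029) and differed by 0.03 in wild type, and Abcg1 was not called. Of 10 genes of SREBP processing and sterol-regulated degradation, 4 rose and 2 fell in knockout, and 5 rose and 1 fell in wild type, where 13.8% of all genes rose and 17.2% fell in knockout and 12.3% and 17% in wild type. Ubxn8 rose by 0.60 and 0.41 and Mbtps1, the protease that makes the first cut in SREBP proteins, fell by 0.21 and by 0.39. Of 9 genes of the isoprenoid branch, 2 rose and 2 fell in knockout and 1 rose and 1 fell in wild type, against the same shares. Pdss2, of ubiquinone synthesis, rose by 0.58 and 0.63, and Ggps1, which makes geranylgeranyl diphosphate, fell by 0.27 and by 0.33. No gene of these 3 lists was called between genotypes at either age with limma. At an unadjusted p under 0.05, SREBP processing held 3 genes at day 30 and 2 at day 15, the isoprenoid branch 1 and 0, and the remaining core genes 1 and 0.

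Fatty acid synthesis, which shares acetyl-CoA with the sterol route, held further differences between genotypes. With age, 7 of 16 genes rose and 2 fell in knockout, and 5 rose and 2 fell in wild type, where all genes gave 13.8% higher and 17.2% lower in knockout and 12.3% and 17% in wild type. Among them were Fasn (0.66 and 0.57) and Acss2 (0.64 and 0.61), which make fatty acids and acetyl-CoA. Against wild type, 4 of the 16 were lower in knockout at day 30 and 4 at day 15, where 0.943% and 2.03% of all genes were lower, and 0 were called higher with limma. Me1, the NADPH-producing malic enzyme, had log2 fold changes of -0.52 at day 30 and -0.60 at day 15 (limma adjusted p = 0.0043 and 0.00092). The desaturase Fads1 differed by -0.55 and -0.40, and Fads2 by -0.28 and -0.25, all called. Elovl6 was lower at day 30 (-0.30) and Scd2 at day 15 (-0.56). At day 15 the medians were 0.17 for the enzymes of cholesterol synthesis and -0.14 for this list.

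Among 16 intracellular sterol carriers, 2 rose and 3 fell with age in knockout and 3 rose and 3 fell in wild type, where 31% and 29.3% of all genes were called in either direction. Stard5 fell by 0.94 in knockout and by 0.71 in wild type, and Lipa, the lysosomal lipase that frees cholesterol from its esters, fell by 0.58 and by 0.61. Scp2, a peroxisomal sterol carrier, rose with age by 0.72 and 0.40 and was higher in knockout at day 30 by 0.53 (adjusted p = 0.0017). Gramd1b, which moves cholesterol from plasma membrane to endoplasmic reticulum, was higher in knockout at day 30 by 0.37 (adjusted p = 0.008).

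Of 14 genes of uptake and lipoprotein export, 1 rose and 6 fell with age in knockout, and 1 rose and 7 fell in wild type, where 17.2% and 17% of all genes fell. Apob, the structural protein of chylomicrons, fell by 0.46 in both genotypes. Apoa1 and Apoa4, which ride on lipoproteins, fell by 0.41 and 0.51 in knockout and by 0.34 and 0.57 in wild type. Cd36, a fatty acid and lipoprotein receptor, was the gene of this list called between genotypes: it was higher in knockout by 0.38 at day 30 (adjusted p = 0.039) and 0.68 at day 15 (adjusted p = 0.00059). Of 11 genes that oxidise or conjugate cholesterol, 3 rose and 2 fell with age in each genotype, against 13.8% and 17.2% of all genes in knockout and 12.3% and 17% in wild type. Sult2b1, the cholesterol sulfotransferase, rose by 1.67 in knockout and 1.54 in wild type, and Cyp27a1, a mitochondrial sterol hydroxylase, by 0.94 and 0.48. Cyp27a1 was higher in knockout at day 30 by 0.37 (adjusted p = 0.016) and differed by -0.09 at day 15 (adjusted p = 0.64).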

How the data were processed

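Total RNA of 12 duodenal pools was measured on a mouse gene array. The deposited log2 expression values were made by the authors with RMA in Affymetrix Expression Console 1.1, per the submitters' processing notes; the log base was taken as 2 from that method and the values. RMA normalises quantiles between arrays, so a shift shared by most genes is removed, and very bright or dim features understate folds. Of 35557 features, 21789 carried 1 gene symbol, 1621 several and 12147 none. Features with 1 symbol were used, with the highest mean where a gene had several (999 genes), leaving 19938 genes. Gene identifiers of 21698 of the 1-symbol features were found in RefSeq; the array's genome build was not given in the sources used.

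With 4 group means and 12 arrays in 1 model, 8 degrees of freedom were left for the spread. It was fitted with limma 3.58.1 in R 4.3.3, eBayes at default settings, and p-values adjusted by Benjamini-Hochberg over all genes. Errors of log2 fold changes are moderated SEs. The code was tested on simulated data. No array repeated another (highest correlation 0.9953), and the number of arrays limits the precision. Per-array values are printed for genes called in a genotype comparison or in the change of the genotype effect, and for the 3 of each role with the largest age change; all measured members are named. From each further list up to 4 genes with the smallest p in a comparison are named. Members, lists and tests were chosen with earlier results of these data known.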

Additional observations from a re-analysis of the deposited data

Results flagged for a closer look

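For 5 sterol genes the difference between knockout and wild type itself differed between ages, in limma's test of that change (day 30 minus day 15, log2 scale). The efflux genes Abcg5 (0.54), Abcg8 (0.48) and Abca1 (0.581) had positive values, and the synthesis enzymes Idi1 (-0.49) and Sc5d (-0.40) negative ones. The knockout means relative to wild type were -0.03 at day 30 and -0.57 at day 15 for Abcg5, 0.06 and -0.42 for Abcg8, and 0.28 and -0.30 for Abca1. For Idi1 they were -0.05 and 0.44, and for Sc5d -0.06 and 0.34.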

How the results depend on the processing

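The number of sterol genes called with age was 23 in knockout and 26 in wild type, and leaving out 1 array gave 23 to 24 and 26 to 26. With the smooth muscle covariate these counts were 4 and 0. At day 15, 7 genes were called between genotypes, against 11 with an intensity trend, 11 with array weights, 0 with the smooth muscle covariate and 6 to 9 with 1 array left out. At day 30, 1 was called, against 3 with an intensity trend, 3 after removing dim genes, 2 with array weights, 2 after epithelial centring, 0 on the compared arrays alone, 0 with Xist as a covariate and 0 to 2 with 1 array left out. For the change of the genotype effect, 5 became 3 with epithelial centring, 0 with the smooth muscle or Xist covariate and 1 to 4 with 1 array left out. For the averaged effect, 7 became 4 with centring, 1 with the smooth muscle covariate and 4 to 7 with 1 array left out.

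Replicate numbers did not clearly pair the arrays. Deviations from the group mean correlated at -0.252 to 0.359 for same-numbered arrays and at -0.358 to 0.373 for differently numbered ones. Same-numbered values were 0.29, 0.059 and 0.169 for age in wild type, and 0.359, -0.009 and 0.261 for genotype at day 15. A replicate block gave 23 and 26 genes with age, 8 at day 15, 1 at day 30, 3 for the change of the genotype effect (Idi1 and Sc5d were lost) and 4 for the averaged effect.

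Only 2 single values changed sign with the main or the alternative fit called. They were Nr1h3 with age in wild type under epithelial centring (-0.1389, limma adjusted p = 0.0323) and Mylip with age in wild type under the smooth muscle covariate (0.1634). Further values changed sign with neither fit called. Among them were Ebp between genotypes at day 15 under the smooth muscle covariate (0.015), and, under epithelial centring, Scap with age in wild type (-0.070) and Npc1l1 with age in knockout (-0.026). The causes were not tested. Over all genes, the smooth muscle covariate left 271 and 46 genes called with age in knockout and wild type. The lowest value of any sterol gene on any array was 7.57 (Lss in wild type at day 15), above the array medians of 7.20 to 7.25.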
